A study of Mus musculus with 2 samples.

Results

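Gene desert peaks of Foxf2 were the regions of the palatal Foxf2-FLAG peak list that lay far from every protein-coding gene. A region was taken when its centre was more than 100 kb from the nearest transcription start site (TSS) of a protein-coding transcript and outside every protein-coding gene body (GENCODE vM1 on mm9). This held for 1705 of 9165 peaks (18.6%). The rule used position and no measured value. The peaks came from an anti-FLAG chromatin immunoprecipitation with sequencing (ChIP-seq) of palatal shelves at E13.5 (embryonic day). Both Foxf2 alleles of the embryos (Foxf2FLAG/FLAG) carried a 3xFLAG tag, added by genome editing, so the ChIP and the input material both carried the tag, and 50 pairs of shelves were collected. The data were 1 ChIP library of 26849463 tags and 1 input library of about 19230000 tags, a depth derived from the peak values. With no replicate, no difference between peaks has a replicate check, and no untagged control was used here.

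Foxf2 belongs to the forkhead family of transcription factors and is made in the palatal mesenchyme, the connective tissue of the shelves, which derives from the neural crest. Its loss in mice causes cleft palate. Forkhead proteins bind short sequences built around AAACA. Gene deserts are long stretches without protein-coding genes; some next to developmental regulators carry enhancers that act on those genes over long distances. Which gene a distant region acts on cannot be read from ChIP-seq, so the genes below are named as the flanks of a desert and not as targets.

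Forkhead sequences stood at the centre of some of the strongest desert peaks, though not of the strongest one. The following 101 bp stretches of the plus strand (NCBIM37, the assembly of mm9) are centred on the forkhead sequence nearest the peak centre. They come from 8 desert peaks of high score, chosen only among peaks with such a sequence in the central 200 bp. The 8 lie in different deserts, all among those named below. Peaks of higher score without such a sequence were passed over, and so was a second peak beside Jag1 that has one (score 128). The stretches are shown because 951 of the 1705 desert peaks had a forkhead sequence in the central 200 bp, and these show it in its genomic context. The forkhead sequence (ATAAACA or GTAAACA or ATAAATA or GTAAATA) is in capitals and appears as its reverse complement where it lies on the minus strand.
Between Jag1 and Btbd3, chr2:137201371-137201471: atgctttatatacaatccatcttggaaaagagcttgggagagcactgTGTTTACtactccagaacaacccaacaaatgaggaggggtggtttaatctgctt
Between Egflam and Gdnf, chr15:7498586-7498686: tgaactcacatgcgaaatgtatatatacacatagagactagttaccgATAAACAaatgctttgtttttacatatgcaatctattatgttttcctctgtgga
Between Ctnna3 and Reep3, chr10:65338742-65338842: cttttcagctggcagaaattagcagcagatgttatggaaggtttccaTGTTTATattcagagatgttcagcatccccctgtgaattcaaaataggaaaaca
Between Mctp2 and Gm4885, chr7:79689053-79689153: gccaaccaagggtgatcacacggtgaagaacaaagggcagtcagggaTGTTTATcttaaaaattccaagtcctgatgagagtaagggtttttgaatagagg
Between Nr2f1 and Arrdc3, chr13:79486571-79486671: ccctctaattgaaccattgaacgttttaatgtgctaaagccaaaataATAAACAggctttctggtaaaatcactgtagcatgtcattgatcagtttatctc
Between Fat4 and 1700017G19Rik, chr3:39359621-39359721: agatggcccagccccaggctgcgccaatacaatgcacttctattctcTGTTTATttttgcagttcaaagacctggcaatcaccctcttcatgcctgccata
Between Gm2574 and Lmo4, chr3:143138575-143138675: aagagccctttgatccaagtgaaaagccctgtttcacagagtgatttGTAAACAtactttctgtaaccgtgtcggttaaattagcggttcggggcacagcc
Between Olfr1324 and 2610018G03Rik, chrX:47994810-47994910: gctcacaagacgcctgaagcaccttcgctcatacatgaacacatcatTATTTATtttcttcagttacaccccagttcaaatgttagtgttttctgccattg
The first 4 and the last of these belonged to peaks among the 10 desert peaks with the highest scores. The form in capitals is ATAAACA in 5 of the 8, GTAAACA in the stretches beside Jag1 and Lmo4, and ATAAATA in the one on the X chromosome.

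Desert peaks, like the other peaks of the list, were mostly modest regions with few input tags. The peak caller's score ran from 17, its tag threshold, to 184, with a median of 26 (quartiles 19 and 42). A desert peak held 14 to 441 ChIP tags (median 32) and 0 to 18 input tags (median 2). The deposited fold over input had a median of 12.89 and could not be below 10, the caller's limit. At most 20 ChIP tags were counted in 481 desert peaks (28.2%), and 103 (6.04%) had no input tag. Over all peaks the median score was 25. In the other classes of peaks by position, the median was 29 to 31 ChIP tags and 1 or 2 input tags. The lower quartile of ChIP tags was 18 to 20 in those classes and 20 in deserts. All desert peaks together held 82223 ChIP tags, 0.306% of the library. Their centres lay 100 to 1991 kb from the nearest protein-coding TSS, with a median of 236 kb. At the edge of the rule, the 3 nearest peaks inside were 100.08, 100.12 and 100.3 kb from the TSSs of Gm10036, Rspo3 and Dazl, with scores of 17, 45 and 23. The 3 nearest outside were 99.94, 99.64 and 99.55 kb from 2610044O15Rik, 4930453N24Rik and Slc28a3, with scores of 19, 40 and 17.

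The strongest desert peak lay between Immp2l and Dnajb9 (chr12:44073708-44074340), 1237 kb from the Dnajb9 TSS. It had a score of 184, with 186 ChIP tags where the input had 4. Its fold over input was 33.3, with a 95% interval from 12.8 to 124. No forkhead sequence was present in the whole region. The next lay between Efcab1 and Ube2v2 (chr16:15368314-15369357) with 238 ChIP tags against 15 input tags. It had 4 forkhead sequences, all outside its central 200 bp.

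The flanks of the other 8 of the 10 highest-scoring desert peaks were of mixed function. The peak between Nr2f1 and Arrdc3 (chr13:78463390-78464016) lay 125 kb from the TSS of Nr2f1, a nuclear receptor of neural crest and brain, and held 180 ChIP and 10 input tags (12.9-fold, 6.85 to 27.3). A peak 259 kb from Jag1, which encodes a Notch ligand, held 170 ChIP and 9 input tags (13.53-fold, 6.96 to 30.1). A second desert peak beside Jag1, 120 kb from its TSS, held 123 ChIP tags against 7 input tags, so both desert peaks of that gap were strong. A peak 188 kb from Fgfr2, which encodes a fibroblast growth factor receptor needed for palate growth, held 159 ChIP and 7 input tags (16.3-fold, 7.72 to 41.1). A peak 150 kb from the TSS of Egflam and 262 kb from that of Gdnf, a neurotrophic factor gene, held 152 ChIP and 5 input tags (21.8-fold, 9.13 to 68.03). The rest of the 10 highest scores, 130 to 143, were between Tmem167 and Atp6ap1l, Olfr1324 and 2610018G03Rik on the X chromosome, Ctnna3 and Reep3, and Mctp2 and Gm4885. Of the 10 peaks, 5 had no forkhead sequence in the central 200 bp, and 4 of those 5 had one elsewhere in the region. The fold intervals overlapped among all 10, so these peaks could not be ordered by fold.

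Forkhead sequences were far commoner at desert peak centres than beside them. At least 1 of the 4 forkhead sequences, on either strand, was present in the central 200 bp of 951 of 1705 desert peaks (55.8%, Wilson 95% interval 53.4 to 58.1). The flank windows of 200 bp were centred 2000 bp from the same peak centres, on the side of lower coordinates, here called upstream. They held one in 341 cases (20%, 18.2 to 21.97), a ratio of 2.79 (exact McNemar test, adjusted p = 7.1e-98 over 16 motifs). Over all 9165 peaks the share was 40.8%. The excess was largest for GTAAACA (20.2% against 3.05%, 6.63-fold, exact McNemar adjusted p = 6.51e-58) and ATAAACA (27.1% against 5.04%, 5.37-fold, adjusted p = 3.29e-70). It was smaller for GTAAATA (8.91% against 4.16%, 2.14-fold, exact McNemar adjusted p = 1.16e-07) and ATAAATA (13.02% against 9.50%, 1.37-fold, adjusted p = 0.00259). Over all peaks the shares of these 4 were 15.3%, 19.7%, 6.06% and 8.53%. Reversed sequences of the same base composition, ACAAATA and ACAAATG, had centre-to-flank ratios of 0.860 and 0.991 (exact McNemar adjusted p = 0.429 and 1).

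**Figure D1:**
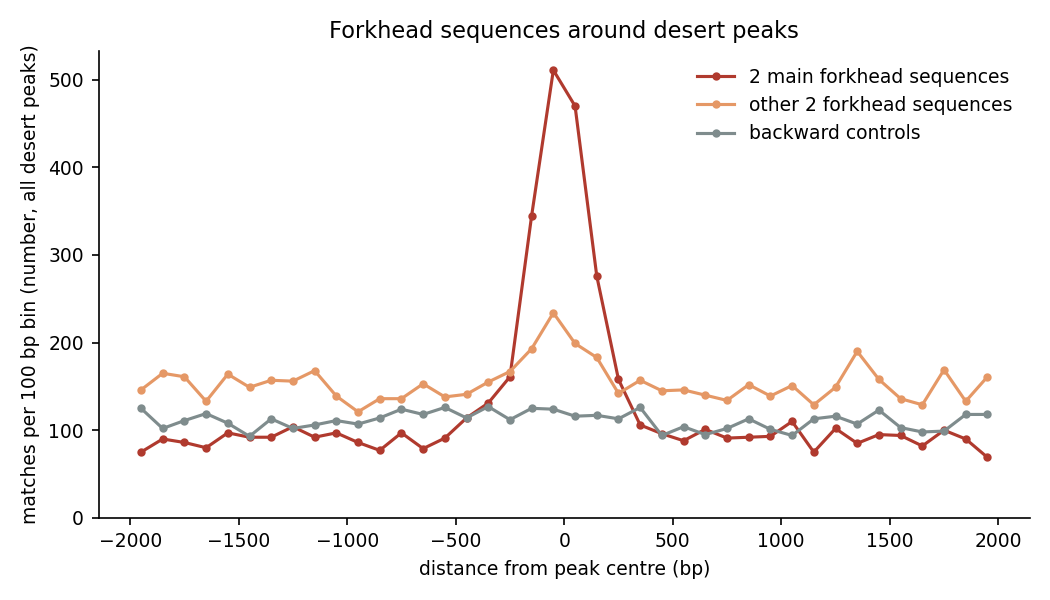
Number of forkhead sequence matches per 100 bp bin (y axis) by distance from the peak centre in bp (x axis), summed over the 1705 desert peaks, for ATAAACA and GTAAACA (main), ATAAATA and GTAAATA (other) and the reversed controls. The main sequences rise to a mean of 490.5 matches per bin next to the centre, against 90.3 beyond 1000 bp, where single bins ranged from 69 to 110.

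The excess was narrow. ATAAACA and GTAAACA together had 5.43 times as many matches in the 2 bins at the centre as in bins beyond 1000 bp, ATAAATA and GTAAATA had 1.42 times as many, and the reversed controls 1.10 times. In the central 200 bp, 649 desert peaks had 1 forkhead sequence, 226 had 2, 51 had 3 and 25 had at least 4. The median score was 22 with none, 30 with 1, 31 with 2 and 39 with 3, but 28 with at least 4. Median ChIP tags were 39 with a forkhead sequence and 28 without, while the median fold was 12.89 in both.

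Sequences of some other factor families were also commoner at the centres. RUNX sequences (TGTGGTTA and TGTGGTTT), read by the Runx factors of bone and blood, were present in 4.63% of centres and 2.23% of flanks (2.08-fold, exact McNemar test, adjusted p = 0.000378), against 3.24% over all peaks. The E-box CATCTG, a sequence of Twist and other basic helix-loop-helix factors, was present in 20.2% of centres and 13.8% of flanks (1.46-fold, exact McNemar adjusted p = 4.82e-06), against 16.1% over all peaks. SOX sequences (AACAAAG and AACAATG) can share letters with a forkhead sequence; counted only where they did not overlap one, they were present in 11.4% of centres and 8.68% of flanks (1.31-fold, exact McNemar adjusted p = 0.0102 over the 3 families recounted this way). Counted without that condition they were present in 14.7% of centres and 8.97% of flanks (1.64-fold, exact McNemar adjusted p = 7.39e-07), against 10.7% over all peaks. CATCTG clear of forkhead sequences was found in 20.4% of centres with a forkhead sequence (17.96 to 23.1) and in 19.1% of centres without one (16.5 to 22.1), and these intervals overlap. Peaks inside a gene and beyond 100 kb from a TSS had RUNX sequences in 3.36% of centres and CATCTG in 21.7%. They had SOX sequences, counted without the overlap condition, in 13.3%. The remaining families did not pass the test. Centre-to-flank ratios were 1.06 for TEAD (GGAATG, exact McNemar adjusted p = 0.851, 9.93% of all peaks), 0.967 for homeobox TAATTA (adjusted p = 0.963, 5.68%) and 1.05 for MEIS (TGACAG, adjusted p = 0.851, 11.04%). They were 1.02 for AGATAA, a sequence that zinc finger factors of blood and heart bind (exact McNemar adjusted p = 0.963, 9.73%), and 0.769 for AP-1 (TGANTCA, adjusted p = 0.108, 4.72%). The full NFI palindrome was present in 1 centre and no flank (exact McNemar adjusted p = 1, 0.0327% of all peaks). A match is a run of letters and was not shown to be bound.

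Stronger desert peaks held a forkhead sequence more often. The share was 39.9% (35.1 to 44.9) of 376 peaks with scores of 17 or 18 and 71.9% (66.7 to 76.6) of 317 peaks with scores of 50 or more, with intervals far apart. The flanks of the same classes ranged from 16.4% to 24.05% without following the score. By distance from the nearest TSS, the share was 53.2% (48.5 to 57.8) of 436 peaks at 100 to 150 kb and 70.2% (57.3 to 80.5) of 57 peaks beyond 1000 kb. The intervals of these end classes overlap narrowly, and the 3 classes between them were at 55.2%, 54.2% and 61.5%. The share did not differ beyond its intervals with the number of desert peaks in the same gap. It was 56.3% (51.2 to 61.3) for peaks alone in their desert and 59.4% (51.1 to 67.3) for those in deserts of 10 or more.

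**Figure D2:**
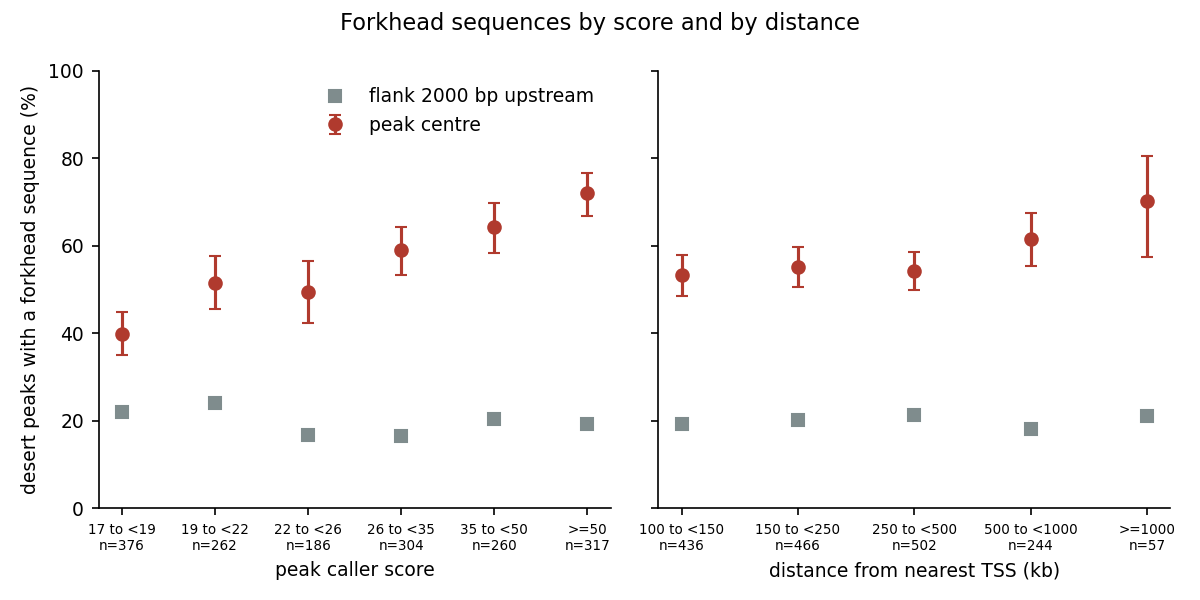
Percent of desert peaks with a forkhead sequence in the central 200 bp (circles, Wilson 95% interval) and in the upstream flank (squares) by score class (left) and by distance from the nearest TSS in kb (right). Centre shares climb from 39.9% to 71.9% over the score classes while the flank shares stay between 16.4% and 24.05%.

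Desert peaks resembled other distal peaks more than peaks near genes. Their forkhead share was 2.13 percentage points above that of the 535 peaks inside a gene and beyond 100 kb from a TSS (53.6%), with a Newcombe 95% interval of the difference from -2.68 to 6.97. It was 5.06 points above that of 1664 intergenic peaks 10 to 100 kb from a TSS (50.7%, interval 1.69 to 8.41), but 0.913 points (-3.58 to 5.41) among peaks at or above the median score of all peaks. It was 34.3 points (31.5 to 37.0) above that of the 3566 peaks within 10 kb of a TSS (21.5%). Of the desert peaks, 246 (14.4%) were in the tenth of all peaks with the highest scores (58 or more, 10% of the list). The difference from the distal peaks inside genes was 0.409 points (-3.16 to 3.61), from the intergenic peaks nearer a TSS 1.57 points (-0.755 to 3.89), and from peaks within 10 kb of a TSS 9.32 points (7.56 to 11.2). GC content of the central window also moved with these classes, with medians of 40.5% in deserts, 43.5% in the nearer intergenic peaks and 64% within 10 kb of a TSS; its part in the differences was not tested.

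Few desert peaks were at annotated non-coding genes. Long non-coding genes were those annotated as lincRNA or processed transcript, and other long types were not counted. Inside a long non-coding gene lay 56 (3.28%, 2.54 to 4.24), against 2.06% (1.15 to 3.64) of distal peaks inside genes and 5.95% (4.91 to 7.19) of intergenic peaks 10 to 100 kb from a TSS. Within 1 kb of a long non-coding TSS lay 10 (0.587%, 0.319 to 1.08), against 0.748% (0.291 to 1.91) and 2.10% (1.52 to 2.91). The intervals overlapped those of the distal peaks inside genes and lay below those of the intergenic peaks. The 56 were spread over 41 non-coding genes, of which 2610307P16Rik beside Sox4, 3100003L05Rik and 9530026P05Rik between Adamts9 and Magi1 each held 3. Within 10 kb of a miRNA gene lay 14 (0.821%), against 0.748% of distal peaks inside genes and 1.32% of intergenic peaks nearer a TSS.

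The 1705 peaks were unevenly spread over the deserts. There were 1979 stretches between neighbouring protein-coding genes with sequence beyond 100 kb from every TSS, 780 Mb in all without assembly gaps, and they held 2.19 desert peaks per Mb (exact Poisson 95% interval 2.08 to 2.29). The rest of the genome held 4.20 peaks per Mb (4.10 to 4.29). Larger deserts were sparser, from 4.25 per Mb (3.52 to 5.09) in deserts under 0.1 Mb to 1.18 per Mb (1.01 to 1.36) in those of 2 Mb or more. The X chromosome had 41 desert peaks, 0.701 per Mb (0.503 to 0.951), and the autosomes ran from 1.58 on chromosome 19 to 3.08 on chromosome 2. No label used here gives the sex of the embryos, and how uniquely reads map in deserts was not modelled.

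At least 1 peak was present in 747 deserts, at least 3 in 213 (10.8% of the 1979), at least 5 in 78 (3.94%) and at least 10 in 11. The 213 deserts with several peaks held 1001 of the 1705 (58.7%) in 30.9% of the desert sequence. The 11 with at least 10 held 138 peaks in 19.2 Mb, 7.18 per Mb. No desert peak was present in 1232 deserts, among them 3.02 Mb between Gm10110 and Pcdh9 and 2.84 Mb between Kcnt2 and Cdc73.

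**Figure D3:**
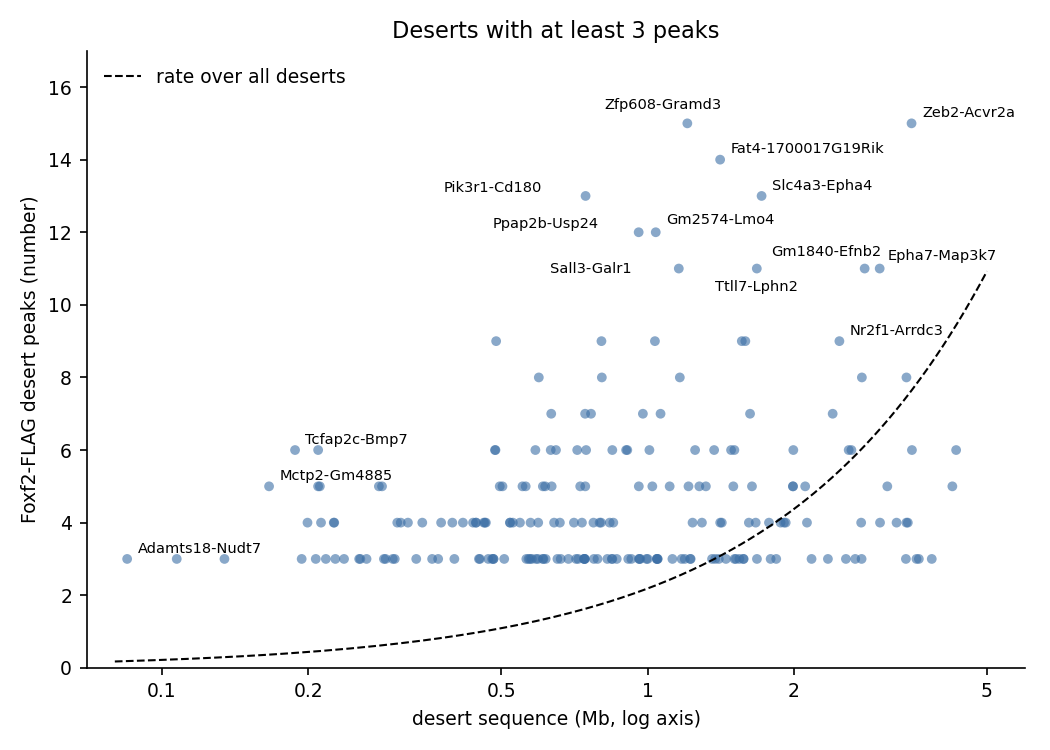
Number of desert peaks (y axis) against the length of desert sequence in Mb (x axis, log scale) for the 213 deserts with at least 3 peaks, each point 1 desert; the dashed curve is the rate over all deserts, 2.19 per Mb. The deserts between Zfp608 and Gramd3 and between Zeb2 and Acvr2a have the most, 15 each, and Tcfap2c to Bmp7 has 6 in a short stretch.

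The desert between Zfp608 and Gramd3 on chromosome 18 (55152246 to 56559990) held 15 peaks in 1.21 Mb, 12.4 per Mb (6.95 to 20.5). Zfp608 encodes a zinc finger protein. Its peaks had 20 to 126 ChIP tags and 1 to 7 input tags each, scores of 18 to 77, and a forkhead sequence in 10 of 15 centres. They lay 267 to 1152 kb from the Zfp608 TSS. The desert on the other side of Zfp608, towards Gm5507, held another 9, so 24 desert peaks flanked this gene, the most of any gene. On that side 3 peaks fell within 6.95 kb and held 392 ChIP tags against 16 input tags.

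The desert between Zeb2 and Acvr2a on chromosome 2 (44972916 to 48669628) also held 15 peaks, in 3.50 Mb, 4.29 per Mb (2.40 to 7.08). Zeb2 encodes a zinc finger factor of neural crest cells and Acvr2a an activin receptor. The peaks were spread over the whole gap, 294 to 3595 kb from the Zeb2 TSS, and 9 had a forkhead sequence. The strongest, 1333 kb from Zeb2, held 141 ChIP tags against 9 input tags, while 7 of the 15 had scores of 17 to 19. The count in this desert therefore included many peaks near the caller's threshold.

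The next deserts by number of peaks are given with what their flanking genes are known for. Beside Fat4, an atypical cadherin gene, 14 peaks lay in 1.41 Mb (9.92 per Mb, 5.42 to 16.6). Between Slc4a3 and Epha4, an Eph receptor gene, 13 lay in 1.72 Mb (7.57 per Mb, 4.03 to 12.9), with another 3 on the far side of Epha4 towards Pax3. The 13 lay 103 to 1597 kb from Slc4a3 and 369 to 1862 kb from Epha4. The strongest, with a score of 100, was 118 kb from Slc4a3 and 1847 kb from Epha4, in a group of 3 within 15.6 kb. Between Epha7, a second Eph receptor gene, and Map3k7, which encodes a kinase of TGF-beta signalling, 11 lay in 3.01 Mb (3.66 per Mb, 1.83 to 6.55). The desert on the other side of Epha7, 2.24 Mb long, held none. Between Gm1840 and Efnb2, an ephrin ligand gene, 11 lay in 2.80 Mb (3.93 per Mb, 1.961 to 7.03), and between Ttll7 and Lphn2, an adhesion receptor gene, 11 lay in 1.68 Mb (6.55 per Mb, 3.27 to 11.7).

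Another 4 deserts held 11 to 13 peaks. Between Pik3r1, which encodes a regulatory subunit of phosphoinositide 3-kinase, and Cd180, 13 peaks lay in 0.745 Mb, 17.4 per Mb (9.29 to 29.8), the highest rate among the deserts with 10 or more. Its strongest peak had a score of 121, with 120 ChIP tags against 7 input tags. Between Ppap2b, a lipid phosphatase gene, and Usp24, 12 lay in 0.959 Mb (12.5 per Mb, 6.47 to 21.9). Between Gm2574 and Lmo4, a LIM-only cofactor gene, 12 lay in 1.04 Mb (11.5 per Mb, 5.96 to 20.2). Between Sall3, a zinc finger transcription factor gene, and Galr1, 11 lay in 1.16 Mb (9.48 per Mb, 4.73 to 16.97). The rate intervals of these 4 deserts overlap. Since the deserts were chosen by their number of peaks, the rates among them mostly follow their lengths.

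The desert between Nr2f1 and Arrdc3 held 9 peaks in 2.48 Mb, with 748 ChIP tags against 44 input tags. Of the 6 deserts with 9 peaks it was named because it had the most ChIP tags. Beside the peak 125 kb from Nr2f1, a peak 1148 kb from it had a score of 126 with 131 ChIP tags against 7 input tags, and one 429 kb from it held 205 against 12. The other 6 had 16 to 60 ChIP tags.

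**Figure D4:**
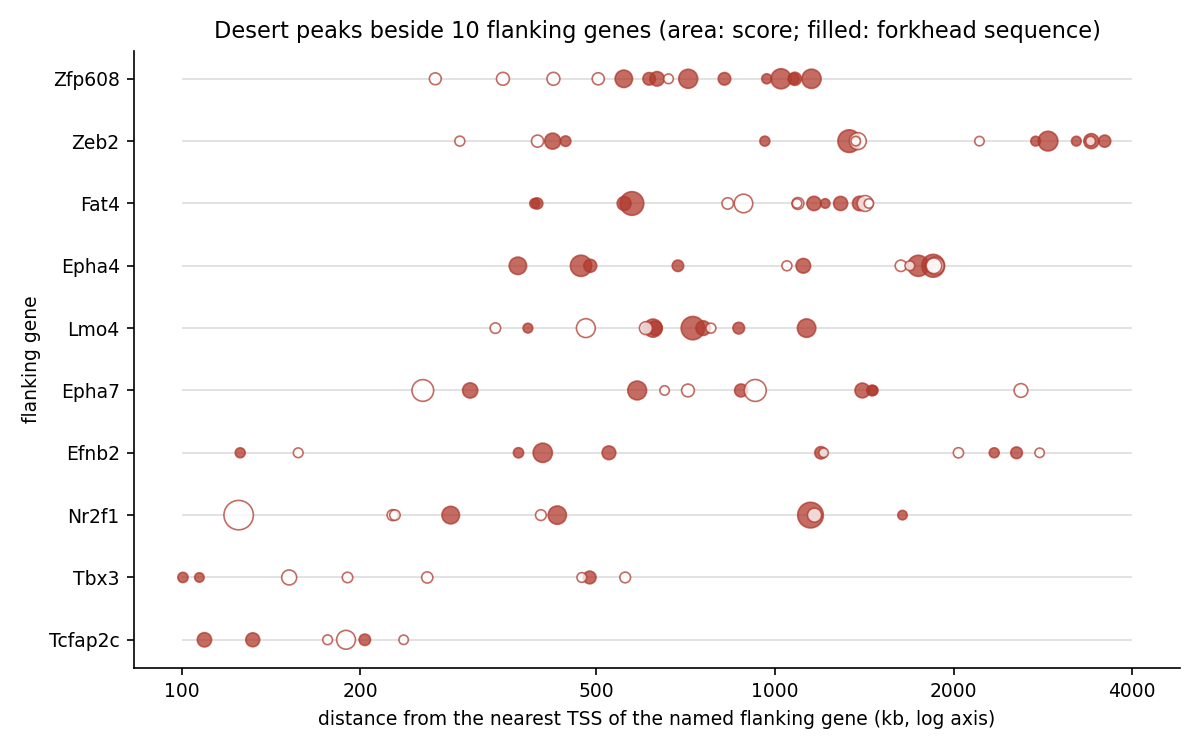
Distance in kb (x axis, log scale) of each desert peak from the nearest TSS of the flanking gene named on the y axis, in 10 deserts; the area of a point follows the score and filled points have a forkhead sequence in the central 200 bp. Peaks beside Zeb2 span 294 to 3595 kb, whereas those beside Tcfap2c lie between 109 and 237 kb. A peak can be nearer the flank that is not drawn: the strongest in the Epha4 row lies 118 kb from Slc4a3.

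In short deserts a few peaks gave high rates with wide intervals, here ranked among deserts with at least 3 peaks. The desert between Tcfap2c, the gene of the transcription factor AP-2 gamma, and Bmp7, a bone morphogenetic protein gene, held 6 peaks in 0.188 Mb, 31.9 per Mb (11.7 to 69.5). The strongest of the 6 lay 189 kb from Tcfap2c and 200.2 kb from Bmp7, with 65 ChIP tags against 3 input tags. Between Adamts18, a secreted protease gene, and Nudt7, 3 peaks lay within 12.6 kb and gave 35.4 per Mb (7.29 to 103.4). All 3 had a forkhead sequence, with 148, 123 and 42 ChIP tags against 7, 8 and 2 input tags. Between Mycn, a growth regulator gene, and Ddx1, 3 peaks gave 28.0 per Mb (5.77 to 81.7), with 18 to 38 ChIP tags each. On the X chromosome, 3 lay between Efnb1, an ephrin gene whose loss causes cleft palate in mice, and Pja1 (22.3 per Mb, 4.60 to 65.2). The remaining high rates, 23.6 to 30.1 per Mb, were between Mctp2 and Gm4885, G930045G22Rik and Gm9953, Rad51l1 and Zfp36l1, and Wdfy3 and Arhgap24, with 5 or 6 peaks each.

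Close groups were rare. Another peak lay within 10 kb of 201 desert peaks (11.8%, 10.3 to 13.4), against 14.6% (11.8 to 17.8) of distal peaks inside genes and 13.8% (12.2 to 15.5) of intergenic peaks nearer a TSS. There were 9 groups of at least 3 desert peaks with neighbours at most 10 kb apart. Beside Alx1, a homeobox gene of the facial mesenchyme, 3 peaks within 4.08 kb held 106, 106 and 28 ChIP tags against 7, 3 and 2 input tags. Between Osr1, a zinc finger gene related to the palate regulator Osr2, and Nt5c1b, 3 within 12.3 kb held 219 against 13. These lay 423 to 434 kb from the Osr1 TSS and nearer to that of Nt5c1b, at 361 to 373 kb. Each region had to exceed its surrounding 10000 bp 10-fold to be called, and the part of this filter in the spacing was not tested.

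Craniofacial transcription factor genes that flank a desert were beside one with several peaks more often than all flanking genes. Of the 3248 genes that flank a desert, 407 (12.5%) flanked one with at least 3 peaks. Among 59 flanking genes of the list of craniofacial mesenchyme transcription factors, 18 did (30.5%). The deserts of these 59 genes held 4.23 peaks per Mb (3.56 to 5.0), against 2.19 over all deserts. They were also longer, with a median of 0.315 Mb against 0.177 Mb over all deserts. The part of length in the share was not tested. The list was chosen with earlier results of these data known and is described without a test. After Zeb2 and Nr2f1, the longest runs were beside Tbx3, a T-box gene of limb and face (8 peaks, 9.94 per Mb, 4.29 to 19.6), Ebf1 (7 peaks), Klf4 (6), Tcfap2c (6) and Nfib (6). With 4 peaks each followed Meis1 and Alx1, homeobox genes, Osr1, Tbx18, a T-box gene, Klf12 and, outside the 15 deserts named by rule, Nr2f2, a nuclear receptor gene. These counts are for 1 side of each gene. The other side held 3 peaks beside Meis1, 2 beside Tbx18 and 1 each beside Osr1 and Klf12.

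The peaks beside these genes differed in strength. Between Meis1 and Spred2, 2 of the 4 were strong, and all 4 had a forkhead sequence. Of these 2, 1 held 94 ChIP tags against 3 input tags, 327 kb from Meis1. The other held 181 against 9, 729 kb from Meis1 but 176 kb from Spred2. The desert on the other side of Meis1, towards Etaa1, held 3 peaks, 2 of them with a forkhead sequence. Beside Tbx18, the strongest held 142 against 6 at 234 kb from the TSS. Beside Tbx3, 1 peak 100.4 kb from the TSS held 203 ChIP tags against 12 but had a score of 20, while the best score was 43 (56 against 4). Beside Nfib, all 6 peaks had scores of 17 to 20, near the lowest score of 17. The one with a score of 20 held 53 ChIP tags against 3 input tags, and the others held 15 to 19 ChIP tags.

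Other gene groups differed in count and rate. Of 13 flanking genes of the cartilage and bone list, 7 (53.8%) were beside a desert with several peaks, with 4.64 per Mb (3.10 to 6.66). They were Sox4, Sox5, Sox6, Sox9, Sox11, Runx1 and Runx2. Sox5 had 5 peaks on the side of Etnk1, 4 of them with a forkhead sequence, and 1 on the side of Bcat1. With at least 5 peaks required, Sox5 was the 1 gene of the 13 left (7.69%, 1.37 to 33.3), against 4.65% of all flanking genes. The share thus rests on deserts of 3 or 4 peaks. The median desert of this list was also longer, 0.360 Mb against 0.177 Mb over all deserts, and the part of length was not tested. Of 47 genes of the hedgehog, Wnt, FGF and TGF-beta/BMP list, 7 (14.9%) were, close to the 12.5% of all flanking genes, with a rate of 3.99 per Mb (3.10 to 5.06). Rspo3, which encodes a secreted enhancer of Wnt signalling, had 4, the strongest with 152 ChIP tags against 9 input tags. That peak lay 362 kb from Rspo3 and 303 kb from Cenpw on the other side. Bmp2 had 4 on the side of Hao1 and 1 on the side of Fermt1. The strongest of the 4, with 88 against 5, lay 663 kb from the Bmp2 TSS and 339 kb from that of Hao1. Of 9 forkhead genes that flank a desert, none was beside one with at least 3, although their deserts held 2.37 per Mb (0.871 to 5.17).

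Of 27 extracellular matrix genes 10 (37.0%) flanked such a desert, at 4.73 per Mb (3.62 to 6.08). Named after their values were seen, Has2, the main hyaluronan synthase gene, had 6 on one side and 3 on the other, and Tnc, which encodes tenascin C, had 6. Of 48 genes of other signalling pathways 12 (25%) did, at 3.02 per Mb (2.48 to 3.63). The median desert was 0.209 Mb long for the matrix list and 0.267 Mb for other signalling. Cadherin and neuronal adhesion genes had a high count with a low rate. Of 56, 25 (44.6%) flanked a desert with several peaks, yet the rate was 1.45 per Mb (1.23 to 1.70), and their deserts were long, with a median of 0.870 Mb against 0.177 Mb over all.

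Marker genes of the other cell types a dissected shelf can hold seldom flanked a desert. Of 3 epithelial, 9 neural and 1 blood or macrophage marker that did, none was beside one with several peaks, and no muscle marker flanked a desert. Of 4 endothelial markers 1 was, Cdh5, with 9 peaks in a desert whose next gene without a predicted name on the other side was Cdh11. The deserts of the endothelial markers held 10 peaks, 6.54 per Mb (3.14 to 12.03), against 2.19 over all deserts. With so few markers the share of peaks from other cells was not measurable here.

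**Figure D5:**
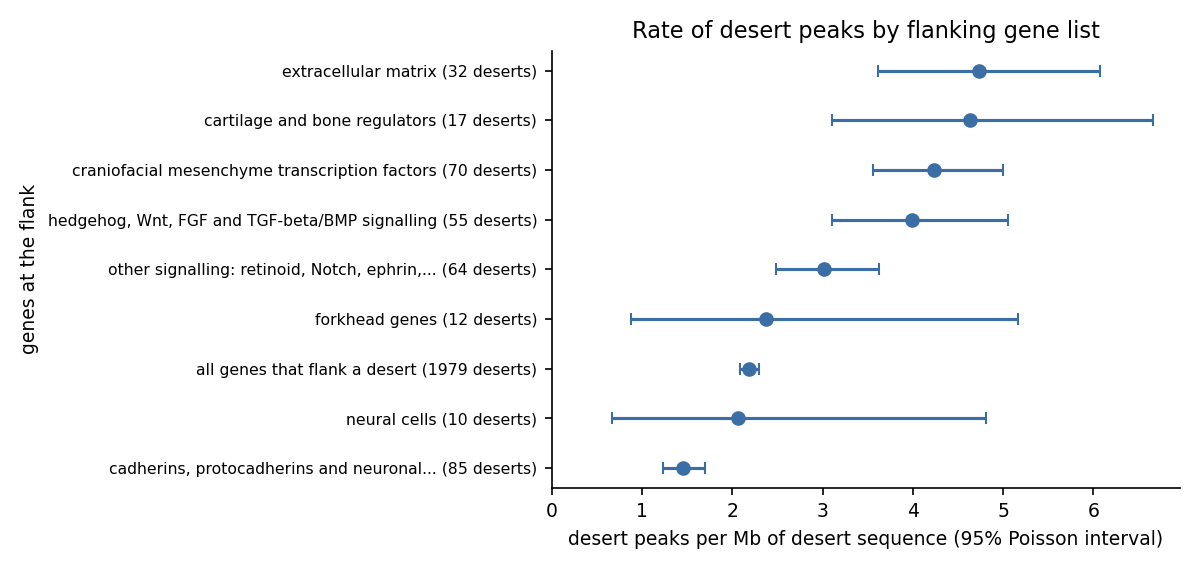
Desert peaks per Mb of desert sequence (x axis) with exact Poisson 95% intervals for the deserts flanked by each gene list (y axis, lists with at least 9 flanking genes; a desert can count in more than 1 list). Craniofacial transcription factors (4.23), cartilage and bone genes (4.64) and extracellular matrix genes (4.73) lie above the 2.19 of all deserts, and cadherin and adhesion genes (1.45) below it.

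Since larger deserts were sparser, rates were also compared within sizes for the 4 first lists together (transcription factors, forkhead, cartilage and bone, and the 4 signalling pathways). In deserts of 0.1 to 0.5 Mb the rate was 4.65 per Mb (3.76 to 5.67) with a listed flank and 2.74 (2.50 to 3.00) without. In deserts of 0.5 to 1 Mb it was 3.68 (2.91 to 4.58) against 2.26 (2.04 to 2.50). From 1 to 2 Mb it was 2.06 (0.989 to 3.79) against 1.74 (1.57 to 1.92), with overlapping intervals. At 2 Mb or more it was 4.01 (2.57 to 5.97) in only 2 listed deserts against 1.06 (0.899 to 1.24), and under 0.1 Mb 5.92 (2.71 to 11.2) against 4.16 (3.42 to 5.01). The intervals were apart in both classes from 0.1 to 1 Mb and overlapped in the shortest class. They cover counting error only and not the spread between deserts, so they are not a test of listed against other flanks. Most deserts with at least 3 peaks had no flank on these 4 lists. Those without and with a listed flank numbered 41 and 11 at 0.1 to 0.5 Mb, and 56 and 16 at 0.5 to 1 Mb. They numbered 57 and 2 at 1 to 2 Mb, and 27 and 2 at 2 Mb or more. The lists were chosen with earlier results of these data known.

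The Sox9 region was looked at after its values were seen, because deletions and rearrangements far from SOX9 cause Pierre Robin sequence, a human condition with cleft palate. The annotation places the predicted gene Gm11678 between Kcnj2 and Sox9, which splits this desert. The Kcnj2 side held 8 peaks, the stretch next to Sox9 1 and the other side, towards Slc39a11, 3. These 12 lay 188 to 1331 kb from the Sox9 TSS, with scores from 17, the caller's threshold, to 78 (median 28.5). Of the 12, 4 had a forkhead sequence in the central 200 bp, against 55.8% of all desert peaks. The highest score was at chr11:112165473-112165973, 478 kb from Sox9, with 77 ChIP tags against 4 input tags and no forkhead sequence in its central 200 bp. The peaks 1198 and 543 kb away held more tags, 172 against 12 and 155 against 11.

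Genes beside a desert with several peaks more often had a Foxf2-FLAG peak at their own promoter, a measure that no desert peak enters. Of the 407 genes beside a desert with several peaks, 87 (21.4%, 17.7 to 25.6) had a peak within 1 kb of a TSS. Of 949 genes beside a desert with 1 or 2 peaks, 155 (16.3%, 14.1 to 18.8) had one, and of 1892 beside deserts without a peak 261 (13.8%, 12.3 to 15.4). The differences were 5.04 percentage points (0.580 to 9.83) and 7.58 points (3.53 to 12.1). Both intervals exclude 0, and they cover counting error only, since genes of 1 locus and copies of 1 fragment are not independent. Deserts with several peaks were also longer, with a median of 0.805 Mb against 0.177 Mb over all deserts, and the part of length was not tested.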

How the data were processed

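The authors aligned reads to mm9; Bowtie 1.0.0, SAMtools 0.1.19 and HOMER (version not given in the sources used here) are named, per the submitters' processing notes. Per the file headers, HOMER called peaks on 1 ChIP library against 1 input library in histone style, with 500 bp peaks, a tag threshold of 17, and 10-fold excesses over input and over the surrounding 10000 bp. The deposited signal was ChIP tags scaled to 10000000, per the file headers, and multiplying back gave whole tags within 0.134. The deposited score is the caller's own; the deposited fold is ChIP over input at input depth (0.5 stands for no input tag); the deposited p-value against input, at most 0.0001, was not used further.

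Positions were compared with NCBIM37 and GENCODE vM1, whose symbols are kept (Tcfap2c for Tfap2c, Lphn2 for Adgrl2). A desert is the sequence between neighbouring protein-coding genes that is over 100 kb from every protein-coding TSS, without assembly gaps. Motifs were searched on both strands and tested on paired windows by an exact McNemar test with Benjamini-Hochberg adjustment over 16 motifs; the code was tested on simulated data. Rates carry exact Poisson, shares Wilson and differences Newcombe 95% intervals, and single folds an exact conditional interval, all for counting error only, since PCR copies are not independent molecules. Named were the flanks of the 12 deserts with the most peaks (ties by ChIP tags), the 8 with the highest rates among deserts with at least 3 peaks, those of the 10 top peaks, and up to 15 deserts flanked by a gene of the first 4 lists; other names were chosen after values were seen. Of 520 list entries, 518 matched. The members and lists were chosen with earlier results of these data known. Python 3.11.15, pandas 2.3.3, SciPy 1.17.1, statsmodels 0.14.6 and pysam 0.24.0 were used.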

Additional observations from a re-analysis of the deposited data

How the results depend on the processing

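No paired analysis was possible because there was 1 ChIP and 1 input library, so no library could be left out either. The number of desert peaks was 1705 at 100 kb, fell to 994 at 200 kb and to 916 with scores at or above the median of all peaks, and was 2379 at 50 kb, 1700 by the whole peak and 1464 with long non-coding genes counted. The forkhead excess over flanks stayed between 2.09-fold and 3.54-fold in the 4 alternatives run. The forkhead difference from intergenic peaks 10 to 100 kb from a TSS dropped to 0.913 points with scores at or above the median, with an interval that includes 0, and the cause was not tested. Deserts with several peaks numbered 78 with at least 5 peaks required and 91 with scores at or above the median, against 213, as fewer peaks count. The 4 first lists flanked a desert with at least 5 peaks in 7.94% of genes (4.65% of all flanking genes), against 25.4% (12.5%) with at least 3, 21.4% (11.6%) with peaks within 10 kb joined, and 25.4% (13.4%) with predicted genes skipped, an alternative chosen after seeing the data. Of the 24 alternatives, 6 moved a value beyond its limits. The share of desert peak centres in repeats, planned at first, was not run. Peaks of at most 20 tags (28.2%) have folds with wide intervals.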
